A study of Mus musculus with 4 samples.

Results

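The cells described here are 1125 of 26825 barcodes from liver fine-needle aspirates (FNA) of mice that carried the transcripts of resident large peritoneal macrophages. A barcode, which tags the RNA of 1 droplet, was taken where it held at least 500 unique molecular identifiers (UMIs, each 1 captured transcript), at least 300 detected genes, at most 10% mitochondrial UMIs, at least 10 UMIs of Prg4, at least 5 of Alox15 and at most 2 of the B cell gene Cd79a. The members were thus chosen by their measured Prg4, Alox15 and Cd79a counts, and the levels of these genes are a description. The mice were male C57BL/6J on the FPC diet (named for fructose, palmitate and cholesterol, with trans fat), a model of steatohepatitis. In P-LC24 the diet held 0.05% cholesterol and livers were sampled at week 24, and in P-HC24 it held 1.25% at the same week. In I-LC32 the 0.05% diet was kept to week 32, and in I-HC32 the 1.25% diet was replaced at week 24 by the 0.05% diet until week 32. Every library pooled 4 biopsies from each of 3 mice, the mice were sampled at both weeks, and each condition had 1 library. Libraries are called high- or low-cholesterol by the diet up to week 24, since both libraries of week 32 came from mice then on the 0.05% diet. No condition could therefore be tested against another, and a difference between libraries holds diet, animals and handling together. Intervals in parentheses are exact 95% intervals (Clopper-Pearson for shares, Poisson for ratios), and they cover counting error only.

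Large peritoneal macrophages are the main resident macrophages of the abdominal cavity. They depend on the transcription factor Gata6, which is induced by retinoic acid in that cavity, and they are known for clearing dying cells, for producing coagulation factors and for adhering to injured serosal surfaces, including that of the liver. Kupffer cells, the macrophages of the liver sinusoids, carry Clec4f and Cdh5 instead and share some genes with them, such as Timd4, Vsig4, Cd5l and the C1q genes. The cells were dissociated from needle aspirates, and where in the body a macrophage lay before the aspiration was not measured.

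The macrophages were many times more frequent in the libraries of mice that had received 1.25% cholesterol. They numbered 35 of 5142 barcodes in P-LC24, or 0.681% (0.475 to 0.945), and 419 of 6914 in P-HC24, or 6.06% (5.51 to 6.65). At week 32 they numbered 58 of 7418 in I-LC32, or 0.782% (0.594 to 1.01), and 613 of 7351 in I-HC32, or 8.34% (7.72 to 8.99). The shares of the high-cholesterol libraries were 8.90 times that of the low-cholesterol library at week 24 and 10.7 times at week 32, and the intervals did not overlap at either week. From week 24 to week 32 the share was 1.15 times as high in the low-cholesterol libraries, with overlapping intervals, and 1.38 times as high in the high-cholesterol libraries. The macrophages carried 13.9% and 15.5% of all UMIs of P-HC24 and I-HC32 but 2.75% and 2.25% of those of P-LC24 and I-LC32.

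**Figure D1:**
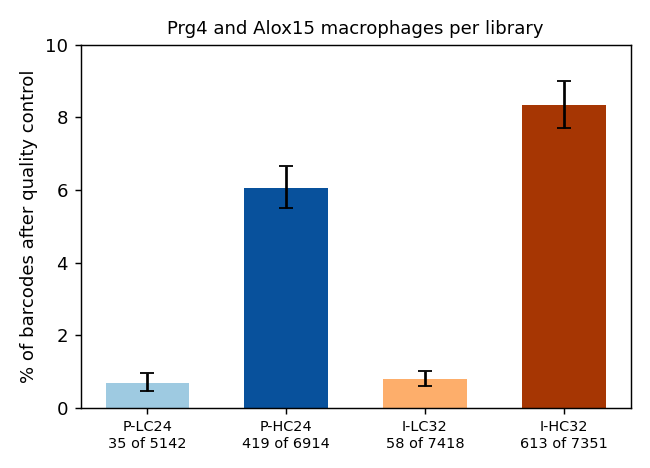
Share of barcodes that met the macrophage rule in each library, as a percentage of barcodes after quality control, with exact 95% Clopper-Pearson intervals as error bars. P-HC24 and I-HC32 stand at 6.06% and 8.34%, and P-LC24 and I-LC32 stand at 0.681% and 0.782%.

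Other cells that are known from the abdominal cavity were counted by fixed rules as well. B cells with a UMI of Zbtb32, a gene of B-1 and memory B cells, made up 8.46% (P-LC24) and 19.6% (P-HC24) of barcodes at week 24 and 20.4% (I-LC32) and 28.8% (I-HC32) at week 32. The median depth of B cells rose in that order too, at 6001, 7058.5, 7421 and 9200 UMIs. A deeper cell is more likely to show a Zbtb32 UMI, and the part of depth in these shares was not tested. Mast cells made up 0.136%, 0.347%, 0.0539% and 0.367% in the same order. Mesothelial cells, which line the cavity and the liver surface, numbered 0, 1, 0 and 3 barcodes. Barcodes counted as Kupffer cells had a UMI of at least 2 of Clec4f, Clec1b, Cdh5 and Folr2, so Clec4f itself was not required. They numbered 13, 2, 5 and 2. The mast cell share was higher in both high-cholesterol libraries than in either low-cholesterol library, with overlapping intervals at week 24 (0.0547 to 0.280 and 0.223 to 0.516), and the Kupffer intervals overlapped at week 32 but not at week 24. How far the aspirates of each library held cells from the cavity was not tested.

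The members were deep cells. Their median depth was 29497 UMIs (P-LC24) and 21908 (P-HC24) at week 24 and 23226 (I-LC32) and 20928 (I-HC32) at week 32, against 6403, 7548.5, 7209.5 and 8928 for all barcodes after quality control. The shallowest member held 2059 UMIs and the deepest 77192, and the median mitochondrial share lay between 2.98% and 4.22%. No member barcode occurred in more than 1 library. Scrublet, which scores barcodes by their likeness to simulated doublets, placed 2, 7, 2 and 24 members among the barcodes it would remove. The Cd79a limit left out 1, 45, 17 and 68 barcodes that met the Prg4 and Alox15 limits. Just outside the rule, with at least 5 Prg4 and 2 Alox15 UMIs, lay 0, 5, 0 and 17 barcodes, whose median depth was 6228 UMIs in P-HC24 and 5002 in I-HC32. Just inside it, with under 20 Prg4 or under 10 Alox15 UMIs, lay 4, 21, 2 and 38 members, with 19277 and 18585.5 in the same libraries. Free RNA was visible at a low level, since 1.19%, 5.65%, 1.71% and 13.4% of B cells carried a Prg4 UMI, whereas the median member held 125, 69, 101 and 99.

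The markers of the cell type were present in every library. Expression is given as CPM (counts scaled to a total of 1e+06) of the UMIs summed over the macrophages of a library, and since UMIs were not scaled per transcript length, CPM are compared between libraries and not between genes. Prg4, which encodes the lubricating glycoprotein lubricin, stood at 4334, 3306, 3881 and 4795 CPM, in the order P-LC24 and P-HC24, then I-LC32 and I-HC32, that is used throughout. Alox15, the 12/15-lipoxygenase, stood at 1844, 1983, 1839 and 1995 CPM. Gata6 stood at 85.6, 79.6, 110 and 106 CPM, and 46.3% of P-HC24 and 37.5% of I-HC32 macrophages had no Gata6 UMI among 10000 UMIs. Selp, the adhesion receptor P-selectin, reached 342, 327, 354 and 435 CPM, and Ltbp1, which binds latent TGF-beta, reached 1363, 1155, 1420 and 1633 CPM. Adgre1, which encodes the macrophage antigen F4/80, stood at 1059, 979, 1355 and 1307 CPM. The 4 markers that the rule did not use were detected in all libraries, and none differed 1.5-fold between the arms at either week. The Kupffer cell genes Clec4f and Cdh5 had no UMI in any macrophage. All 8 listed Kupffer genes together held 14.1, 10.1, 10.3 and 7.69 CPM. Of these genes 2, 1, 2 and 1 had a UMI in at least 5% of macrophages. By these markers the label of a peritoneal type holds.

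Coordinates in the mouse build GRCm39 place Prg4 on chromosome 1 (150325163 to 150342009, minus strand), Alox15 on chromosome 11 (70234970 to 70242858, minus strand), Selp on chromosome 1 (163942833 to 163977595, plus strand), Ltbp1 on chromosome 17 (75312519 to 75699507, plus strand) and Adgre1 on chromosome 17 (57665573 to 57790527, plus strand). Timd4 lies on chromosome 11 (46701620 to 46735177, plus strand) and Vsig4 on chromosome X (95290807 to 95337044, minus strand).

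Promoters of the identity genes were searched for the 6 letters AGATAA, or TTATCT on the other strand, a form of the motif that GATA factors bind. RefSeq promoters of 300 bases (build GRCm38.p6, from 250 bases before to 50 after a gene's start) were at hand for 16 of the listed genes, 19 promoters in all. The letters occurred in 3 of the 19 promoters, or 15.8%, against 11.2% of 32851 promoters of all genes, so the listed genes held them about as often as other genes. They are shown for Serpinb2, an inhibitor of plasminogen activators, and Saa3, a serum amyloid protein. Both genes were far above the other myeloid cells in the class comparison that follows. The remaining match lay in Tgfb2, which was also far above those cells and is not shown. Another promoter of Serpinb2 held no match. The capitals mark the matched letters, which begin 41 bases before the start of Serpinb2 (chr1:107511260-107511559, plus strand) and 134 bases before that of Saa3 (chr7:46715627-46715926, minus strand). A match is a description of the sequence and not a binding site.
Serpinb2: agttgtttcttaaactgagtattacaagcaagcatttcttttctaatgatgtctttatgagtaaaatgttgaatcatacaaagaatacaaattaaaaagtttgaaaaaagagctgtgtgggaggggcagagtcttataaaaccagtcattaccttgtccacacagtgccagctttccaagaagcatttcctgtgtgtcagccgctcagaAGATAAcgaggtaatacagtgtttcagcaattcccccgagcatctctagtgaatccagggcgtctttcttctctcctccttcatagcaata
Saa3: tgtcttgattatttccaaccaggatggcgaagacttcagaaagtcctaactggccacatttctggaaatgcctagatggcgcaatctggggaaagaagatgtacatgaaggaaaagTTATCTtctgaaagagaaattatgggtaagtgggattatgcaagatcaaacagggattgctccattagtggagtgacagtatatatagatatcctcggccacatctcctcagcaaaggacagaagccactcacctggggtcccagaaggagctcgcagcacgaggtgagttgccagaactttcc

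To describe what set these macrophages apart from other myeloid cells of the same aspirates, their summed UMIs were compared with those of Ccr2 monocytes (82, 83, 149 and 33 barcodes) and of dendritic cells (34, 24, 41 and 44 barcodes). The 4 libraries served as samples, edgeR's quasi-likelihood test was fitted across all genes with the library as a block, and the genes that chose the cells were left out. Against monocytes, 2043 of 8549 genes were higher (23.9%) and 1772 lower (20.7%) at an adjusted p under 0.05. Against dendritic cells, 1697 of 7511 were higher (22.6%) and 1506 lower (20.1%). The median log2 fold change of all genes was 0.02 and 0.03. The monocyte barcodes also held transcripts of natural killer cells, with 738, 271, 229 and 174 CPM of Gzma, and the part of such cells in the comparison was not tested.

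Of 22 tested identity genes, 21 were higher than in monocytes and 22 higher than in dendritic cells, with median log2 fold changes of 7.37 and 8.39. With genes that had no UMI in the other class set at their lower bound, the medians were 7.24 and 7.12. Gata6 had no UMI in any monocyte or dendritic cell library. With 3 counts over the other class as a floor, it was at least 139-fold higher than in monocytes and at least 73.4-fold higher than in dendritic cells (edgeR adjusted p 6.37e-07 and 1.67e-05). Ltbp1 was higher than in monocytes by 9.83 ± 0.24 (log2, SE; edgeR adjusted p 1.46e-09), and it was at least 1099-fold higher than in dendritic cells, which had none. Selp differed from monocytes by 7.92 ± 0.24 and Adgre1 by 3.53 ± 0.14, and Adgre1 was detected in all 4 monocyte libraries. Garnl3, a little-studied gene of the peritoneal signature, differed by 10.10 ± 0.28, and Slpi, an inhibitor of neutrophil proteases, by 7.46 ± 0.18. Cd93 was the exception against monocytes, at 0.04 ± 0.20 with an edgeR adjusted p of 0.902.

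Of 8 tested genes of the retinoid and Gata6 axis, 6 were higher and 2 lower than in monocytes, and 4 were higher than in dendritic cells. Rarb, a receptor gene that retinoic acid itself induces, was 8.53 ± 0.31 (log2) above monocytes and 1.02 ± 0.26 above dendritic cells. Rara was 1.05 ± 0.13 below monocytes (log2 change of -1.05), and Rarg and Rxra were 0.53 ± 0.17 and 1.07 ± 0.21 above them (edgeR adjusted p 5.23e-05, 0.0290 and 0.00190). Aldh1a2, which makes retinoic acid, held 3.53, 10.2, 4.53 and 8.28 CPM in the macrophages and was too low in the other classes to be tested. Among myeloid regulators 4 of 12 were higher than in monocytes and 7 lower, with Irf8, a monocyte and dendritic cell factor, lower (log2 fold change of -2.64).

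Secreted products of coagulation, complement and the acute phase were mostly higher. Of 12 tested coagulation and fibrinolysis genes, 10 were higher and 2 lower than in monocytes (median log2 fold change 3.20), and 11 of 12 were higher than in dendritic cells. F5 (3.50 ± 0.14), F7 (5.90 ± 0.24) and F10 (2.27 ± 0.14), which encode clotting factors V, VII and X, were higher than in monocytes, as was Serpinb2 (8.48 ± 0.31). F13a1, the transglutaminase that crosslinks fibrin, was lower (log2 fold change of -4.42, SE 0.29). F3, the tissue factor that starts clotting, had no UMI in monocytes and 16.8, 89.3, 38.1 and 50.4 CPM in macrophages, at least 91.7-fold higher. Pf4, a chemokine otherwise known from platelets, was 8.71 ± 0.28 above monocytes, while the platelet marker genes summed to between 1.29 and 2.60 CPM in 3 libraries and to 44.1 CPM in P-LC24.

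Complement genes were mostly higher too, with 13 of 14 tested higher than in monocytes (median 3.79) and 14 of 14 higher than in dendritic cells. C1qa, C1qb and C1qc, the chains of C1q, were higher than in monocytes by 7.74 ± 0.45, 6.64 ± 0.47 and 7.78 ± 0.43. C4b was higher by 7.44 ± 0.22, and Cfp, which encodes properdin, by 3.28 ± 0.15. C3, the central component, was the member that was lower than in monocytes (log2 fold change of -2.04, SE 0.16). Of 7 tested acute phase and antiprotease genes, 5 were higher than in monocytes, among them Saa3 (6.03 ± 0.43), Ecm1 (5.59 ± 0.23) and Timp2 (5.32 ± 0.17), and Hp, which encodes haptoglobin, was lower (log2 fold change of -3.13, SE 0.13).

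Enzymes of lipid mediators were mostly higher, apart from a degrading enzyme. Ltc4s, which makes leukotriene C4, was 8.60 ± 0.26 (log2) above monocytes, Alox5, the 5-lipoxygenase, 5.31 ± 0.21, and Ptgis, the prostacyclin synthase, 9.77 ± 0.36. Ptgs1, the constitutive cyclooxygenase, was 6.88 ± 0.29 above monocytes, and Hpgd, which breaks prostaglandins down, was below them (log2 fold change of -3.59, SE 0.32). In all, 8 of 13 tested genes were higher and 1 was lower than in monocytes.

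Of 14 tested chemokines 9 were higher and 2 lower than in monocytes, and of 13 tested efferocytosis and scavenging genes 8 were higher and 5 lower. Cxcl13, the chemokine that attracts B cells, was 10.04 ± 0.35 above monocytes, Cxcl2, which attracts neutrophils, 6.08 ± 0.42, and Ccl24, which attracts eosinophils, 6.67 ± 0.45. Ccl5 was lower (log2 fold change of -3.80, SE 0.38). Timd4, a receptor for phosphatidylserine on dying cells, had no UMI in monocytes and was at least 229-fold higher in macrophages. Cd5l was higher by 9.30 ± 0.41 and the efferocytosis receptor Mertk by 4.58 ± 0.35, whereas Scarb1 (log2 fold change of -1.14, SE 0.16), Axl (-1.13), Itgav (-0.70), Itgb5 (-4.58) and Cd300lf (-3.05) were lower.

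Antigen presentation genes were mostly lower, and interferon genes were lower than in monocytes. Of 7 tested MHC class II genes, 5 were lower than in monocytes, with a median log2 fold change of -0.97. Against dendritic cells 7 of 7 were lower, with a median log2 fold change of -5.50. The dendritic cells were chosen by their H2-Ab1 UMIs, and although H2-Ab1 itself was left out, the other class II genes are expressed with it, so this direction is in large part set by the choice of cells. Of 19 tested interferon-stimulated genes 17 were lower than in monocytes, with a median of -1.23. Against dendritic cells 4 of 16 were higher and 3 lower, with a median of 0.08. Of cytokine and growth factor receptors 10 of 14 were lower than in monocytes, among them Il13ra1 (log2 fold change of -2.51) and Ifngr1 (-2.22). Csf1r, the receptor for the macrophage growth factor, was among those that did not pass (-0.13 ± 0.11, edgeR adjusted p 0.381). Of cell cycle genes 20 of 21 were higher than in monocytes (median log2 fold change 3.17) and 2 of 22 higher than in dendritic cells. Of immediate early genes 15 of 17 and of heat shock genes 10 of 12 were higher than in monocytes.

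**Figure D2:**
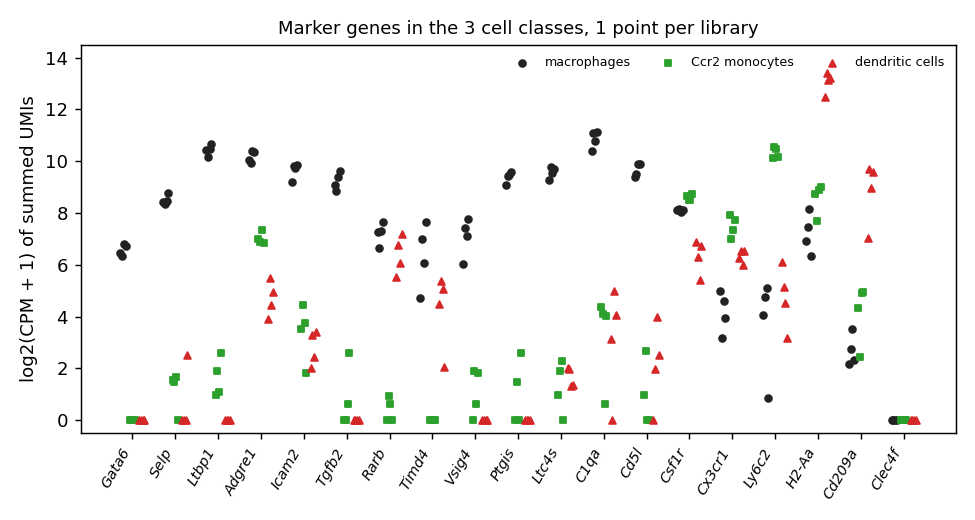
Levels of 19 genes in macrophages (circles), Ccr2 monocytes (squares) and dendritic cells (triangles), as log2(CPM + 1) of summed UMIs with 1 point per library. The 4 macrophage libraries lie above both other classes for Gata6, Selp, Ltbp1, Ptgis, Ltc4s and C1qa, and below them for Cx3cr1, and Clec4f is at 0 throughout.

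High against low cholesterol was then compared within the macrophages at each week. A gene was compared where at least 10% of the macrophages of either library had a UMI of it and both libraries together held at least 100, and it was counted as higher or lower at 1.5-fold or more, with no test. At week 24 (P-HC24 over P-LC24), 554 of 7246 genes were higher (7.65%) and 1004 lower (13.9%). At week 32 (I-HC32 over I-LC32), 471 of 8317 were higher (5.66%) and 621 lower (7.47%). The median log2 ratio of all genes was -0.13 and -0.08, and TMM scaling shifted it by 0.15 and 0.10, so that 62.2% and 62.6% of the counted genes were then higher, against 35.6% and 43.1%. The low-cholesterol sums rest on 35 and 58 cells. Leaving out, for each gene, the cell with most of its UMIs in each library gave 951 higher and 549 lower genes at week 24 and 797 and 309 at week 32. This alternative was chosen after seeing the data, and it raises the ratios by construction, since 1 cell is a larger part of 35 or 58 cells than of 419 or 613 (shift of the median log2 ratio 0.15 and 0.11).

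Of 7210 genes compared at both weeks, 93 were higher at both, which are 17.1% of the calls of week 24 and 29.2% of those of week 32. Another 122 were lower at both, or 12.4% and 27.4% of the calls. In the opposite direction, 37 were higher at week 24 and lower at week 32, or 6.79% and 8.31% of the calls. The 28 that were lower and then higher made up 2.84% and 8.78%. Of all genes compared at each week, 7.65% were higher and 13.9% lower at week 24, and 5.66% and 7.47% at week 32. The 2 comparisons share no library, although the mice were the same.

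Timd4 was the identity gene with the widest difference. It stood at 25.6, 127, 66.6 and 199 CPM, 4.95-fold higher at week 24 and 2.99-fold higher at week 32, and each high-cholesterol library exceeded both low-cholesterol libraries. In P-LC24, 1 cell held 41% of its UMIs, and without the cell with most UMIs in each library the week 24 ratio was 8.08-fold. Vsig4, a complement receptor of resident macrophages, stood at 63.5, 171, 139 and 218 CPM, or 2.70-fold and 1.57-fold higher, and without the top cells the week 24 ratio was 4.67-fold. Cd93 stood at 45.9, 81.3, 45.9 and 102 CPM, or 1.77-fold and 2.21-fold higher. These 3 genes were the identity genes that were at least 1.5-fold higher at both weeks. Of 22 identity genes other than Prg4 and Alox15, which chose the cells, 4 were higher and 1 lower at week 24, and 5 were higher and none lower at week 32.

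The other identity genes that passed 1.5-fold did so at 1 week. Icam2, an adhesion molecule that marks large peritoneal macrophages, was 1.52-fold higher at week 24 (588 and 895 CPM) and stood at 847 and 929 CPM at week 32. Rarb was 1.55-fold lower at week 24 (154 and 99.4 CPM) and stood at 155 and 198 CPM at week 32. Aspa, which splits N-acetylaspartate, was 1.54-fold higher at week 32 (237 and 364 CPM), and Nt5e, the ectoenzyme CD73, 1.89-fold higher (62.1 and 117 CPM). None of these 4 passed at the other week.

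Among secreted proteins, Lrg1, an acute phase glycoprotein, stood at 131, 339, 237 and 480 CPM, or 2.58-fold and 2.02-fold higher. Ecm1, a matrix protein, stood at 535, 1195, 802 and 1255 CPM, or 2.24-fold and 1.56-fold higher. Both genes were higher in each high-cholesterol library than in either low-cholesterol library. Timp2, an inhibitor of matrix proteases, was 1.80-fold higher at week 24 and 1.45-fold at week 32. Slpi, by contrast, stood at 36764, 32496, 29992 and 30304 CPM and differed little. Of 7 compared acute phase genes, 4 were higher and 1 lower at week 24 (median log2 ratio 0.77), and 2 were higher at week 32 (median 0.39).

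Complement genes leaned the same way, with 4 of 14 higher and 1 lower at week 24 (median log2 ratio 0.39) and 2 of 14 higher at week 32 (median 0.30). C1qa stood at 1353, 2155, 1758 and 2243 CPM, 1.59-fold higher at week 24 and 1.27-fold at week 32. C4b stood at 510, 911, 698 and 944 CPM, 1.79-fold and 1.35-fold higher. Cfb, factor B of the alternative pathway, stood at 26.5, 84.6, 78.2 and 112 CPM, 3.20-fold higher at week 24, where P-LC24 was the library apart. C5ar1, the receptor for C5a, was 1.65-fold higher at week 32 alone (138 and 228 CPM).

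Cytokine genes were higher at week 24 in 7 of 10 compared, with a median log2 ratio of 1.03, and at week 32 in 3 of 10, with a median of 0.22. Il6 stood at 101, 188, 202 and 346 CPM, 1.85-fold and 1.71-fold higher, and Il1a at 47.6, 97.7, 54.3 and 93.0 CPM, 2.05-fold and 1.71-fold higher. Il1b was 2.03-fold higher at week 24 (106 and 215 CPM) but stood at 192 and 147 CPM at week 32. Tnf stood at 10.6, 46.1, 58.8 and 66.5 CPM, 4.35-fold higher at week 24, again with P-LC24 below the other libraries. Ptgs2, the inducible cyclooxygenase, stood at 92.6, 160, 34.9 and 87.4 CPM, 1.73-fold higher at week 24 and higher by more at week 32.

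Of 14 compared chemokines, 6 were higher and none lower at week 24, and 2 were higher and 1 lower at week 32. Cxcl13 stood at 43.2, 685, 885 and 809 CPM. The ratio at week 24 was 15.8-fold, with P-LC24 far below the other 3 libraries, and at week 32 I-HC32 lay slightly below I-LC32. In each low-cholesterol library 1 cell held 35% of the Cxcl13 UMIs. Ccl24 was 2.01-fold higher at week 32 (290 and 583 CPM) and stood at 453 and 600 CPM at week 24. Ccl5, a chemokine of lymphocytes and activated macrophages, was 4.31-fold and 3.14-fold higher, but 1 cell held 53% of its UMIs in P-HC24 and 42% in I-HC32, and without the top cells the ratios were 2.37-fold and 2.02-fold.

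Spp1, which encodes osteopontin, stood at 3.53, 42.8, 38.1 and 99.7 CPM, 12.1-fold and 2.61-fold higher, and 19.5-fold at week 24 without the top cells. The P-LC24 value of Spp1 rests on 4 UMIs. F3 was 5.33-fold higher at week 24 and 1.32-fold at week 32. Cd63, a lysosomal membrane protein, stood at 30.0, 81.6, 64.0 and 103 CPM, 2.72-fold and 1.62-fold higher, and Itgb7, an integrin chain, at 49.4, 120, 135 and 207 CPM, 2.42-fold and 1.53-fold higher.

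Of genes that mark alternative activation, the summed UMIs of Arg1 and Chil3 moved in opposite directions. Arg1, which encodes arginase 1, stood at 78.5, 14.3, 85.3 and 33.9 CPM, 5.48-fold and 2.52-fold lower with high cholesterol, and both low-cholesterol libraries exceeded both high-cholesterol libraries. In P-LC24, 1 cell held 37% of its UMIs, and without the top cells the week 24 ratio was 4.40-fold. Chil3, a chitinase-like protein, stood at 29.1, 56.5, 33.6 and 76.1 CPM, 1.94-fold and 2.26-fold higher.

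Cholesterol and lipid genes were compared because the diets up to week 24 differed in cholesterol. Of compared genes of sterol synthesis and uptake, 3 of 11 were lower and none higher at week 24, and 6 of 15 were lower and none higher at week 32 (median log2 ratios -0.25 and -0.43). Srebf2, the regulator of that pathway, stood at 33.5, 18.9, 31.0 and 20.2 CPM, 1.77-fold and 1.54-fold lower. Of liver X receptor targets, 1 of 10 was higher at week 24 and 1 of 9 at week 32, with medians of 0.31 and 0.40. That gene was Mylip, a ubiquitin ligase, at 27.4, 43.5, 34.9 and 54.9 CPM. Apoe stood at 3780, 5289, 3972 and 5755 CPM, 1.40-fold and 1.45-fold higher, and Abca1, a cholesterol exporter, at 207, 237, 140 and 201 CPM, so neither passed 1.5-fold.

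Lipoprotein lipase and fatty acid binding proteins differed too. Lpl stood at 211, 114, 224 and 120 CPM, 1.84-fold and 1.87-fold lower, and the 2 libraries of each arm lay close together. Fabp5 stood at 1227, 611, 776 and 601 CPM, 2.01-fold lower at week 24. Dgat1, which makes triglycerides, stood at 11.5, 23.1, 7.11 and 16.3 CPM, 2.02-fold and 2.30-fold higher. Hilpda, a lipid droplet protein induced by hypoxia, was 2.43-fold higher at week 32 (45.9 and 111 CPM) and stood at 114 and 113 CPM at week 24.

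Immediate early genes, which respond within minutes to stimulation and to cell handling, were higher in 6 of 17 at week 24 and 4 of 17 at week 32, and none was lower. Jun stood at 224, 382, 614 and 1021 CPM and Ier2 at 234, 436, 719 and 1260 CPM. Both were higher in the high-cholesterol library of each week and higher at week 32 than at week 24. Heat shock genes were higher in 2 of 12 and lower in 1 at week 24, with Hspa1b at 4.41, 19.6, 15.5 and 32.4 CPM, and higher in 2 of 13 at week 32. The part of handling in the differences described above was not tested.

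Cell cycle genes were lower with high cholesterol in 14 of 21 compared at week 24 and 8 of 14 at week 32, with none higher and median log2 ratios of -1.03 and -0.60. Mki67, a marker of proliferating cells, stood at 101, 23.1, 49.1 and 32.3 CPM, and Ube2c at 120, 43.3, 77.6 and 34.0 CPM. In the low-cholesterol libraries 1 cell held 54% and 42% of the Mki67 UMIs and 44% and 82% of those of Ube2c. Without the top cell of each library Mki67 was 2.40-fold lower at week 24, and at week 32 its log2 ratio was 0.08. Mcm5, a replication factor, was 2.04-fold and 2.03-fold lower (30.9, 15.2, 21.3 and 10.5 CPM).

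Antigen presentation and interferon genes were mostly higher with high cholesterol at week 24 and mostly not at week 32. Of 6 compared MHC class II genes, 3 were higher and none lower at week 24 (median log2 ratio 0.60), whereas 5 were lower and none higher at week 32 (median -1.73). Cd74, the invariant chain, stood at 293, 526, 815 and 264 CPM and H2-Ab1 at 102, 162, 318 and 86.6 CPM. In P-LC24, 1 cell held 79% and 75% of these UMIs, and without the top cells the week 24 ratios were 7.43-fold and 5.59-fold higher. Among macrophages without any Cd79a UMI, however, the week 24 log2 ratios were 0.06 for Cd74 and -0.07 for H2-Ab1, so neither reached 1.5-fold there and H2-Ab1 turned. The week 32 sums of I-LC32 came mostly from few cells. The 10% of its thinned cells with most held 81.5% of the Cd74 and 83.2% of the H2-Ab1 UMIs. In both libraries of week 32 the median cell held 1 Cd74 and 0 H2-Ab1 UMIs. Without the top cells the 2 genes were 2.53-fold and 2.74-fold lower at week 32. Of interferon-stimulated genes, 10 of 15 were higher at week 24 (median 0.63), and 1 of 16 was higher and 5 lower at week 32 (median -0.40). Rtp4 stood at 17.6, 67.7, 86.0 and 57.0 CPM and Irf7, a regulator of interferon genes, at 15.0, 52.3, 50.4 and 39.3 CPM. In both genes P-LC24 was low and the other 3 libraries lay closer together.

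**Figure D3:**
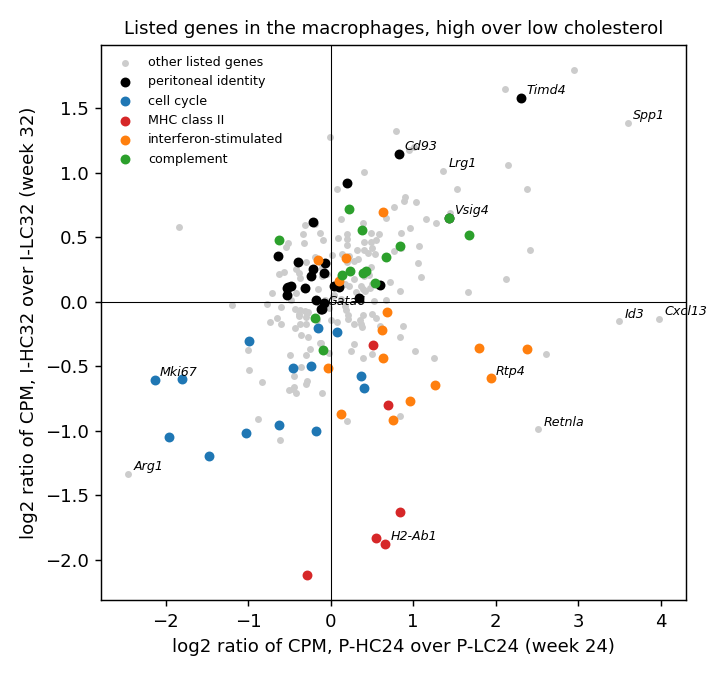
Log2 ratios of high over low cholesterol in the macrophages at week 24 (horizontal axis) and week 32 (vertical axis) for listed genes compared at both weeks, 1 point per gene, with 5 lists in colour. Timd4, Vsig4 and Cd93 lie to the upper right, Arg1 and Mki67 to the lower left, and H2-Ab1 and Retnla are higher at week 24 and lower at week 32.

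Among genes outside the lists, the highest ratios at week 24 included Cd38, an enzyme that consumes NAD, at 4.41, 50.4, 19.4 and 45.7 CPM, or 11.4-fold and 2.36-fold higher. Ust, a sulfotransferase, was 10.2-fold higher at week 24. Cma1 and Mcpt4, which encode mast cell proteases, also ranked there, and the summed mast cell markers in the macrophages were 6.18, 90.1, 14.9 and 36.1 CPM, with 76% of the Cma1 and Mcpt4 UMIs of P-HC24 in 1 cell each, and the part of mast cell transcripts was not tested. At week 32 Areg, the growth factor amphiregulin, was 7.37-fold higher, having been 6.18-fold higher at week 24 (5.29, 32.7, 6.46 and 47.6 CPM). The P-LC24 value of Cd38 and both low-cholesterol values of Areg rest on few UMIs. Acod1, which makes itaconate, was 5.52-fold and 4.68-fold higher at weeks 32 and 24. It held 407 UMIs over all libraries, few of them in the low-cholesterol libraries. Slc15a2, Tmtc2 and Tubb3 were 26.6-fold, 16.8-fold and 4.34-fold higher at week 32, with wide intervals (4.72 to 1053, 4.61 to 139 and 2.08 to 10.9). The olfactory receptor gene Or5m3b ranked there as well at 5.75-fold, with 61% of its I-LC32 UMIs in 1 cell, as did ENSMUSG00000079808 at 13.5-fold on 2 UMIs in I-LC32. Hspb1, a small heat shock protein, was 12.1-fold higher on 3 UMIs in I-LC32.

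The lowest ratios at week 32 outside MHC class II included Plac8, a gene of monocytes and lymphocytes, at 146, 62.0, 151 and 16.6 CPM, or 9.05-fold lower. Coro1a, an actin regulator of leukocytes, was 4.28-fold lower, with 135 and 31.6 CPM. Asb4, Antxr2 and Phlpp1 were 5.27-fold, 3.32-fold and 3.21-fold lower, and 1 cell of I-LC32 held 74% of the Asb4 UMIs. The summed monocyte markers were 140, 90.1, 122 and 45.4 CPM in the macrophages and those of small peritoneal macrophages 125, 466, 235 and 113 CPM, and their part in these ratios was not tested. At week 24 the mitotic genes Cenpf, Nusap1, Top2a, Ccnb2 and Cenpa and the chaperone Hsph1 made up the lowest ratios with Arg1 and Mki67.

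Across time, the low-cholesterol libraries (I-LC32 over P-LC24) had 312 of 3615 genes higher (8.63%) and 245 lower (6.78%). The high-cholesterol libraries (I-HC32 over P-HC24), whose diet had been changed between the 2 weeks, had 660 of 8953 higher (7.37%) and 165 lower (1.84%). With TMM scaling the share of higher genes among those counted went from 56.0% to 44.3% in the first comparison and from 80.0% to 62.8% in the second. Immediate early genes were higher at week 32 in both arms, in 12 and 9 of 17, and heat shock genes in 1 of 9 and 7 of 13. MHC class II genes were higher in 6 of 6 on low cholesterol and lower in 4 of 6 in the libraries that had changed diet. Klf2, a transcription factor of quiescent cells, stood at 1569, 1729, 2478 and 3209 CPM, and Ptgs2 was lower at week 32 in both arms. Summed neutrophil markers were 536, 523, 18.1 and 16.3 CPM and red cell globins 6007, 4319, 440 and 941 CPM in the macrophages, so transcripts of both kinds were higher at week 24, and their part in the differences over time was not tested.

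The macrophages also differed among themselves. To compare cells of unequal depth, each was thinned to 10000 UMIs, which left 34, 410, 56 and 597 cells and dropped 1, 9, 2 and 16 that were shallower. The gene with the highest variance to mean ratio was Slpi, at 345 in P-HC24 and 354 in I-HC32, and it ranged from 0 to 1500 UMIs in P-HC24 with none in 5.61% of cells. Retnla, a secreted product of alternatively activated macrophages, had ratios of 262 and 100 and no UMI in 90.2% and 90.3% of cells. Apoe had ratios of 59.1 and 58.7, and Cxcl13 35.2 and 51.0. Cxcl13 was unevenly spread, since 52.7% and 53.9% of cells had no UMI and the 10% of cells with most held 62.8% and 70.6% of all of them. Gata6, by comparison, had ratios of 1.28 and 1.16. Of the 12 genes picked in P-HC24, 8 were also among the leading 12 in each other library. S100a9, a neutrophil gene, was at 146 in P-HC24 and 0.985 in I-HC32.

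Timd4 divided the macrophages most clearly by library. A Timd4 UMI was found in 11.8% of thinned P-LC24 cells (3.30 to 27.5), 42.0% of P-HC24 (37.1 to 46.9), 25.0% of I-LC32 (14.4 to 38.4) and 58.0% of I-HC32 (53.9 to 62.0). The intervals of the arms did not overlap at either week, and the share was also higher at week 32 than at week 24 on the high-cholesterol arm. Vsig4 was found in 20.6%, 24.9%, 19.6% and 24.6% of cells, with overlapping intervals. In I-HC32 Vsig4 was present in 28.6% of cells with Timd4 and in 19.1% of those without.

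**Figure D4:**
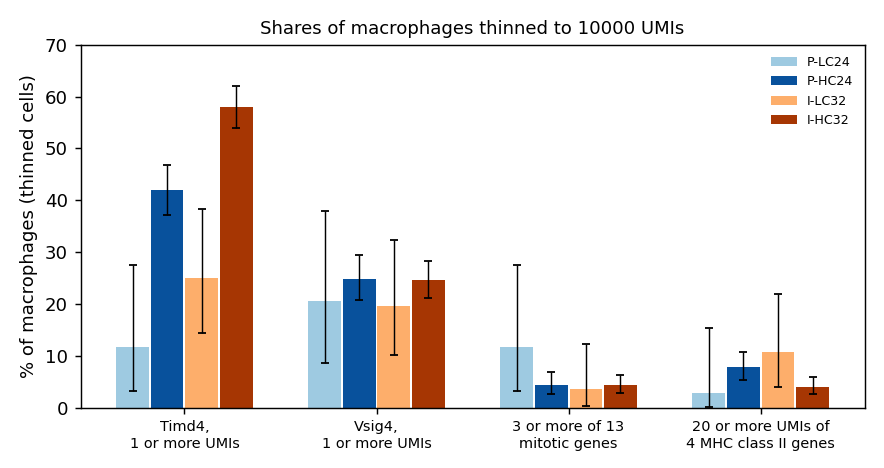
Share of macrophages, each thinned to 10000 UMIs, that carried a Timd4 UMI, a Vsig4 UMI, at least 3 of 13 mitotic genes or at least 20 UMIs of 4 MHC class II genes, with exact 95% Clopper-Pearson intervals. The Timd4 shares run from 11.8% in P-LC24 to 58.0% in I-HC32, while the other shares have overlapping intervals between the arms.

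Genes were then compared between cells with and without a Timd4 UMI in the high-cholesterol libraries. The 15 highest and 15 lowest genes were picked in P-HC24 and read in I-HC32, which had not picked them. Of the higher genes, 10 kept their sign and 6 reached 1.5-fold in I-HC32, where 115 of 5733 genes were that much higher (2.01%) and 70 that much lower (1.22%). Of the lower genes, 11 kept their sign and 5 reached 1.5-fold. The higher genes were Cdkn2a, an inhibitor of the cell cycle (log2 ratios 1.66 in P-HC24 and 1.94 in I-HC32), the protocadherin Pcdh7 (1.34 and 0.83), C130026I21Rik (1.09 and 1.10), Prtg (1.04 and 1.01), Cd63 (0.96 and 0.93) and Wnt2, a secreted Wnt ligand (0.90 and 0.94). The lower genes were Retnla (-1.46 and -3.45), Stmn1, a gene of dividing cells (-1.41 and -1.25), F13a1 (-1.19 and -1.15), Apoc2 (-1.15 and -0.60) and Hmgb2 (-0.94 and -0.65). Of listed genes, Cxcl13 was higher in cells with Timd4 (0.81 and 1.13), as were Vsig4 (0.84 and 0.76) and the cholesterol exporter Abcg1 (0.88 and 1.45), and Cd74 was lower (-0.53 and -1.28). Gata6 differed little (0.25 and 0.01), and Spp1 was higher in P-HC24 (1.43) but not in I-HC32 (0.00). In I-LC32, with 14 cells that had Timd4, Cxcl13 and Vsig4 were higher too (1.08 and 3.33), whereas Retnla was higher (2.98) and not lower, with all 42 UMIs of the cells with Timd4 in 1 of them. In P-HC24 and I-HC32 a single cell without Timd4 held 548 and 214 of the 1158 and 469 Retnla UMIs of that group.

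**Figure D5:**
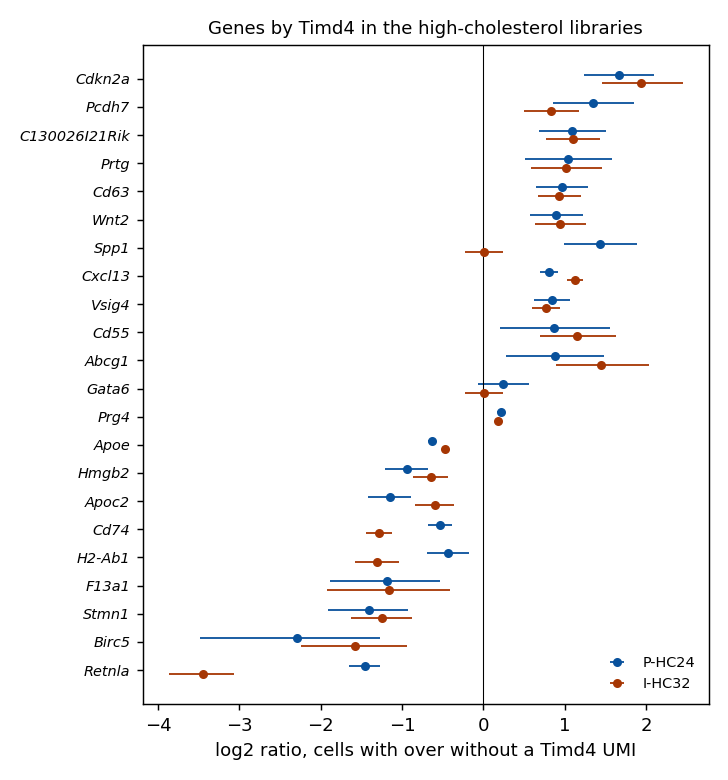
Log2 ratio of mean UMIs in macrophages with over without a Timd4 UMI, for selected genes in P-HC24 and I-HC32, with exact 95% Poisson intervals that cover counting error only. Cdkn2a, Cd63, Wnt2 and Cxcl13 are higher and Retnla, Stmn1 and F13a1 lower in cells with Timd4 in both libraries, and Gata6 lies near 0.

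A small set of macrophages expressed MHC class II. At least 20 UMIs of 4 class II genes were found in 1 of 34, 32 of 410, 6 of 56 and 24 of 597 thinned cells, or 2.94%, 7.80%, 10.7% and 4.02%, with 1, 31, 3 and 49 cells near that limit, which makes it a range and not a type. In P-HC24 and I-HC32 these cells had more Retnla (log2 ratios 5.40 and 3.22), Coro1a (2.24 and 1.75) and Lgals1 (1.64 and 1.84) than the others, and more F13a1 (2.04 in I-HC32). They had less Ltbp1 (-1.67 and -0.82), Timd4 (-1.73 and -3.12) and Cxcl13 (-1.23 and -3.63). Gata6 was present in them at means of 0.719 and 1.38 UMIs, with intervals of the ratio to the other cells that span no difference. Ccr2 was higher in those of P-HC24 (mean 1.13 against 0.0688 UMIs), and Ighm, a B cell gene, had intervals that span no difference. Retnla was unevenly spread, since 90.2% and 90.3% of all thinned cells of P-HC24 and I-HC32 had none and 1 cell held 548 and 214 UMIs. The part of single cells in its ratios and the part of doublets in the class II set were not tested.

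Mitotic cells, with at least 3 of 13 mitotic genes among 10000 UMIs, numbered 4 of 34, 18 of 410, 2 of 56 and 26 of 597, or 11.8%, 4.39%, 3.57% and 4.36%. The intervals of all 4 libraries overlapped, and 3, 7, 1 and 11 cells were near the limit. Hmgb2, a chromatin protein of dividing cells that the mitotic rule did not use, was higher in them (log2 ratios 3.74 and 3.68). Timd4 was found in 16.7% and 38.5% of these cells in P-HC24 and I-HC32, against 43.1% and 58.8% of the others.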

How the data were processed

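Fine-needle aspirates of liver were profiled by droplet single-cell RNA sequencing (3′ chemistry), with 1 library for each of 4 conditions. The authors made the deposited counts, unnormalized UMI counts per gene and barcode, with Cell Ranger 9.0.1 on GRCm39, and processed them further with Seurat 5.3. The ambient RNA correction of the study is not part of the raw counts used here. The files held 50941106 to 89257239 UMIs per library in 7035 to 9828 barcodes.

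The quality limits were those of the study (500 UMIs, 300 genes, 10% mitochondrial UMIs). UMIs were summed over the macrophages of each library and scaled to CPM. Conditions, with 1 library each, were compared as ratios with exact Poisson (conditional binomial) 95% intervals and a limit of 1.5-fold, with no test. Macrophages were tested against Ccr2 monocytes (at least 2 Ccr2 and 3 Ly6c2 UMIs) and dendritic cells (at least 1 Flt3 and 10 H2-Ab1 UMIs) with edgeR 4.0.16 in R 4.3.3 (glmQLFit and glmQLFTest, TMM, filterByExpr, Benjamini-Hochberg adjustment over all genes), with the library as a block since both sums came from the same pool. The 4 libraries differ in condition and share animals, so the p-values measure the spread between these libraries. The genes that chose the cells were left out. On simulated counts of 8554 genes for the monocyte comparison this test recovered 50% of 2-fold and 94% of 4-fold changes, and on 7517 genes for the dendritic cell comparison 59% and 90%. The simulation gave all genes the same relative spread and each gene the same mean share in every library. These rates therefore hold for that setting, and those for the real libraries may differ.

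Cells were thinned at random to 10000 UMIs for shares and spread. Doublets were not removed. Scrublet, as run in scanpy 1.11.5, was an alternative that removed the highest scores at 0.8% per 1000 barcodes. The other calculations used Python 3.11.15, numpy 2.4.6 and scipy 1.17.1, and figures matplotlib 3.10.9. Named genes were those of 23 functional and 15 marker lists, the 20 most abundant genes, the 8 highest and 8 lowest ratios of each diet comparison among genes with at least 200 UMIs, the 12 most variable genes of P-HC24 with a thinned mean of at least 0.5, and the 10 highest and 10 lowest genes of each class comparison. Ranked genes not described in the text are left out for length. Some listed genes are counted in their lists but not reported here. The members and the lists were chosen with earlier results of these data known, and the Timd4, Vsig4, mitotic and MHC class II divisions after their values were seen. Alternatives covered the mitochondrial, Prg4, Alox15 and Cd79a limits, doublets, the fold, thinning, TMM, the UMI minimum, the cell with most UMIs of each gene, DESeq2 1.42.0, its size factors, no filter on low counts, no library block and each library left out.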

Additional observations from a re-analysis of the deposited data

Results flagged for a closer look

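Of 245 listed genes that are reported here and were compared at both weeks, 8 were at least 1.5-fold higher with high cholesterol at week 24 and at least 1.5-fold lower at week 32, with counting intervals beyond no change at both. Among all 7210 genes compared at both weeks, 22 met the same limits. With 1 library per condition the difference between the weeks was not tested. Each value that follows is the log2 ratio at week 24 minus that at week 32. Among antigen presentation genes the difference was 2.53 for H2-Ab1, 2.47 for Cd74 and 1.49 for H2-DMb1, and 1 cell of P-LC24 held 75% of the H2-Ab1 UMIs. Among macrophages without any Cd79a UMI the week 24 log2 ratios of Cd74 and H2-Ab1 were 0.06 and -0.07. In I-LC32 the 10% of thinned cells with most held 81.5% and 83.2% of the UMIs of these 2 genes. Among interferon-stimulated genes the difference was 2.53 for Rtp4, 1.91 for Ifi47 and 1.74 for Zbp1. It was 1.72 for the chemokine Ccl4, and 3.51 for Retnla, of whose I-LC32 UMIs 1 cell held 74%. Without the top cells the week 32 log2 ratio of Retnla was 0.26, so its lower level at week 32 was lost.

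Barcodes with the macrophage genes and more than 2 Cd79a UMIs lay outside the comparisons. There were 1 (P-LC24) and 45 (P-HC24) at week 24 and 17 (I-LC32) and 68 (I-HC32) at week 32, which are 2.78%, 9.70%, 22.7% and 9.99% of the barcodes that met the Prg4 and Alox15 limits. Their median depth was 40560, 33462, 34367 and 32047 UMIs, above that of the members, and Scrublet marked 0, 13, 3 and 47 of them.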

How the results depend on the processing

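The condition comparisons have no replicates, and the low-cholesterol libraries hold 35 and 58 macrophages, so counting error and single cells limit them. Of the alternative values of the counts and shares, 109 stayed the same within their limits and 40 moved. The shares moved to 10.9% (P-HC24), 1.37% (I-LC32) and 10.6% (I-HC32) with at most 5% mitochondrial UMIs, and to 4.87% (P-HC24) and 6.76% (I-HC32) without any Cd79a UMI. Higher and lower genes at week 24 numbered 1455 and 2715 at 1.2-fold, 183 and 160 at 2-fold, 902 and 548 with TMM, 847 and 1832 with at least 20 UMIs, 951 and 549 without the top cell of each gene, and 968 higher in thinned cells. At week 32 they numbered 1323 and 2339 at 1.2-fold, 144 and 103 at 2-fold, 891 and 960 in thinned cells, 797 and 309 without the top cell, with 389 lower by TMM, 1166 lower with at least 20 UMIs and 277 higher with an interval beyond no change. Over time on low cholesterol they numbered 992 and 786 at 1.2-fold, 79 and 55 at 2-fold, 1344 and 815 with at least 20 UMIs, and 393 lower in thinned cells. In the arm that changed diet they numbered 2734 and 803 at 1.2-fold and 147 and 51 at 2-fold, with 264 lower by TMM. Of the listed ratios past 1.5-fold, 3 turned, H2-Ab1 at week 24 to a log2 ratio of -0.0714 without any Cd79a UMI, and, without the top cell of each gene at week 32, Retnla to 0.26 and Mki67 to 0.0756. The last choice and the interval were added after seeing the data.

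Against monocytes, leaving out 1 library gave 1593 to 2000 higher and 1384 to 1789 lower genes, and against dendritic cells 1372 to 1634 and 1248 to 1413. DESeq2 gave 1688 and 1441 against monocytes and 1463 and 1293 against dendritic cells. With no replicate block the counts were 1883 and 1657, and 1636 and 1536. Thinned cells gave 1123 genes higher than in dendritic cells. The cause of these moves was not tested.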

Other observations

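Of circadian clock genes, picked after their values were seen, Nr1d1 and Dbp were at least 1.5-fold higher in the high-cholesterol library at both weeks. Nr1d1, a repressor of the clock, stood at 15.0, 28.9, 11.0 and 32.8 CPM (P-LC24 and P-HC24, then I-LC32 and I-HC32), 1.92-fold higher at week 24 and 2.98-fold higher at week 32. Its relative Nr1d2 had ratios of 1.38 and 2.26 and Tef of 1.31 and 1.60. Dbp, a clock output gene, stood at 4.41, 12.6, 1.29 and 10.3 CPM, the low-cholesterol values resting on 5 and 2 UMIs. The ratios were 1.27 and 1.41 for Per1 and 1.03 and 0.808 for Per2. They were 0.510 and 0.866 for Cry1, 0.654 and 1.14 for Cry2 and 0.802 and 0.778 for Clock. Hlf, Ciart, Per3, Bmal1 and Npas2 were not compared. The hour at which each library was collected is not given in the sources used here, and its part in these ratios was not tested.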
